A study of Bos taurus with 32 samples.

Results

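The stage change of bovine embryos cultured with a mixture of FGF2, LIF and IGF1 (called FLI after its 3 cytokines) was followed from the 4-6 cell to the 9-16 cell stage. It rested on 8 of the 32 libraries of the series, chosen by their labels as the FLI libraries of these stages: 4 of the 4-6 cell stage (replicates 6 to 9) and 4 of the 9-16 cell stage (replicates 10 to 13). Each library was made from a pool of 15 in vitro produced embryos. RNA was extracted with a PicoPure kit, and SMART-Seq v4 served for amplification. The series also holds untreated control libraries of the same stages and later stages of both treatments, and the 8 control libraries of the 4-6 and 9-16 cell stages, with the same replicate names, were used for comparison. FGF2 is a fibroblast growth factor, LIF a cytokine of the interleukin 6 family and IGF1 an insulin-like growth factor. The labels give neither doses nor the time of addition, and they do not say whether pools of 1 group were cultured apart. The p-values therefore reflect only how far the pools differ from each other, which may be technical.

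A cleavage-stage embryo starts with RNA that the oocyte made and stored, and its own genome is almost silent. During embryonic genome activation this maternal RNA is cleared and transcription from the embryo's own chromosomes begins, first at low level and then in a major wave, which in cattle falls around the later of these stages. Oligo(dT)-primed amplification of this kit type reads polyadenylated RNA, so that a change of the length of the poly(A) tail of stored RNA and a change of its amount cannot be told apart. In pools of whole embryos, fewer cells of a type and less RNA per cell cannot be told apart either, and all levels below are relative to the other RNA of the same library. Stage also coincides with collection and with the deposited table, and these cannot be told apart.

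Reads per library, recovered from the deposited values, ran from 14.1 to 89.2 M at the 4-6 cell stage and from 11.7 to 41.5 M at the 9-16 cell stage. Levels are in CPM (read counts relative to library size, in the usual per-million unit, scaled jointly over the libraries), and the values of single libraries are given in the order of replicates 6 to 9 for the 4-6 cell stage (early) and 10 to 13 for the 9-16 cell stage (late). The oocyte and cleavage-embryo markers were present in every library, with DPPA3 between 998 and 2397 CPM, BMP15 between 1180 and 1869 CPM and POU5F1 between 56.7 and 104 CPM. Of the cumulus markers HAS2 stood between 64.0 and 133 CPM, PTX3 and CYP19A1 stayed at or below 3.09 CPM, and FSHR was not listed in both tables. Of the sperm markers PRM1 and TNP1 were not listed in both tables, and ODF1 and AKAP4 stayed below 0.817 CPM. HBB and PTPRC, markers of blood and immune cells, were not listed in both tables either, and HBA, CD68 and PECAM1 stayed at or below 3.02 CPM. The endothelial marker VWF was higher, at 48.6 to 258 CPM early and 30.4 to 39.7 CPM late, and the cumulus marker TNFAIP6 reached 3.70 CPM.

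FLI 4-6 cell replicate 6 stood apart from the other 3 libraries of its group. It held 89.2 M reads against 14.1 to 22.6 M, and 22.6% of them fell in its 100 most abundant genes against 16.8 to 16.9%. Its share of reads at 6 annotated rRNA-derived features was 0.0147%, against 1.59 to 2.21% in the other 3 libraries and 4.32 to 7.19% at the 9-16 cell stage. Its short-gene index, the median log2 level of genes under 1000 exonic bases minus that of genes over 4000, was -0.44 against -2.55 to -2.40, which is above the 9-16 cell range of -2.06 to -1.75 as well. Control 4-6 cell replicate 6 (0.0336% at rRNA features, index -0.23) and control 9-16 cell replicate 11 (0.118%, index -0.56) stood apart in the same way. Counts of gene groups below are therefore given with all 8 libraries and, beside them, without FLI 4-6 cell replicate 6.

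**Figure D1:**
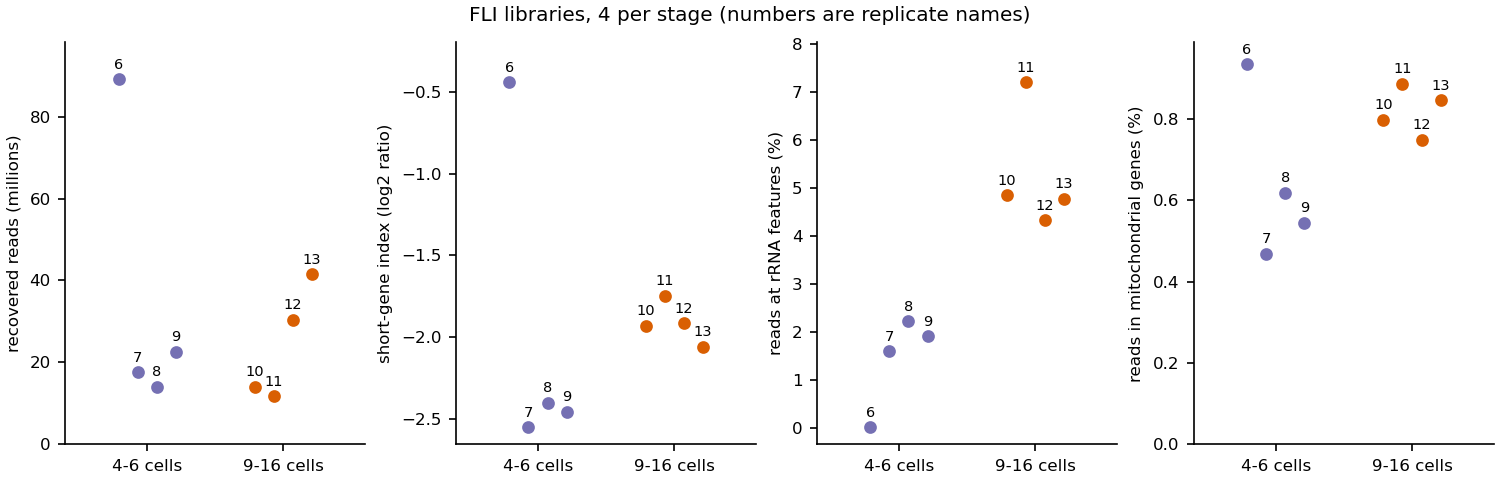
Recovered reads (M), the short-gene index as a log2 ratio, the percent of reads at rRNA features and the percent of reads in mitochondrially encoded genes, with 1 point for each of the 8 FLI libraries and its replicate name above it. FLI 4-6 cell replicate 6 lies at 89.2 M reads, an index of -0.44 and 0.0147% rRNA features, outside the range of the other 7 libraries in all 3 of these panels.

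More genes were detected in every 9-16 cell library than in any 4-6 cell library, a difference that did not pass adjustment. Genes at or above 1 CPM numbered 13180 ± 73.7 (SD, n = 4) at the 4-6 cell stage and 13591 ± 53.4 (SD, n = 4) at the 9-16 cell stage, with no overlap (two-sided exact permutation test over 70 arrangements, p = 0.0286, the smallest this design allows; 0.0857 after Benjamini-Hochberg adjustment over 6 library measures). Without replicate 6 the 4-6 cell mean was 13190 ± 86.3. These counts used CPM without the joint scaling factors, over the 16279 genes listed at both stages. The share of reads in the 13 mitochondrially encoded genes was 0.642 ± 0.205% and 0.820 ± 0.0595% (exact permutation test, p = 0.171, adjusted p = 0.257). Without replicate 6, which held 0.935%, the 4-6 cell share was 0.544 ± 0.0750% and the stages did not overlap (exact permutation test, p = 0.0286, again the smallest allowed).

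Of 13821 genes tested with limma, 2362 were called higher at the 9-16 cell stage (17.1%) and 1417 lower (10.3%), at a Benjamini-Hochberg adjusted p under 0.05. At this rule 903 genes rose at least 4-fold (6.53% of those tested) and 69 fell at least 4-fold (0.499%). The count of such falls depended on the tool, with 207 by edgeR, 165 by DESeq2 and 136 by limma-voom, and was 112 with a pseudocount of 0.25 CPM. At 8-fold the counts were 440 and 7, and at 16-fold 214 and 1. Fold changes are on the log2(CPM + 1) scale, which understates the change of genes with low levels, and 264 of the 903 genes averaged under 1 CPM at the 4-6 cell stage. Libraries of the stages did not overlap for 4750 of the genes tested (34.4%), 894 of the 903 and all 69 among them.

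Leaving out replicate 6 raised the counts to 3470 higher (25.3% of 13728 genes tested) and 2754 lower (20.1%), with 946 rising at least 4-fold (6.89%) and 40 falling at least 4-fold (0.291%). Of the 2362 genes called higher with all 8 libraries, 2361 were called higher without it, and of the 1417 called lower 1409 were called lower. The count of falls also moved when a 9-16 cell library was left out, to 733 without replicate 10, 885 without replicate 11 and 744 without replicate 12. CPM without the joint scaling factors gave 2117 genes higher and 2232 lower, and moved the median log2 difference of all genes from -0.03 to -0.14. In that setting 824 genes rose at least 4-fold and 98 fell at least 4-fold.

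The genes that rose at least 4-fold together held 0.985 to 1.04% of the reads of each 4-6 cell library and 8.78 to 11.6% of each 9-16 cell library. All genes called higher went from 5.18 to 6.40% of reads to 18.2 to 22.8%, and those called lower from 13.1 to 15.3% to 4.89 to 6.29%. These sums describe genes chosen for their change. The genes that rose at least 4-fold were compact, with a median genomic span of 10.2 kb against 22.5 kb over all genes tested. The span was 38.7 kb for genes that fell at least 4-fold. Exonic lengths lay closer together, with medians of 2166 bases for the rises, 2393 bases for the falls and 2455 bases over all genes tested.

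**Figure D2:**
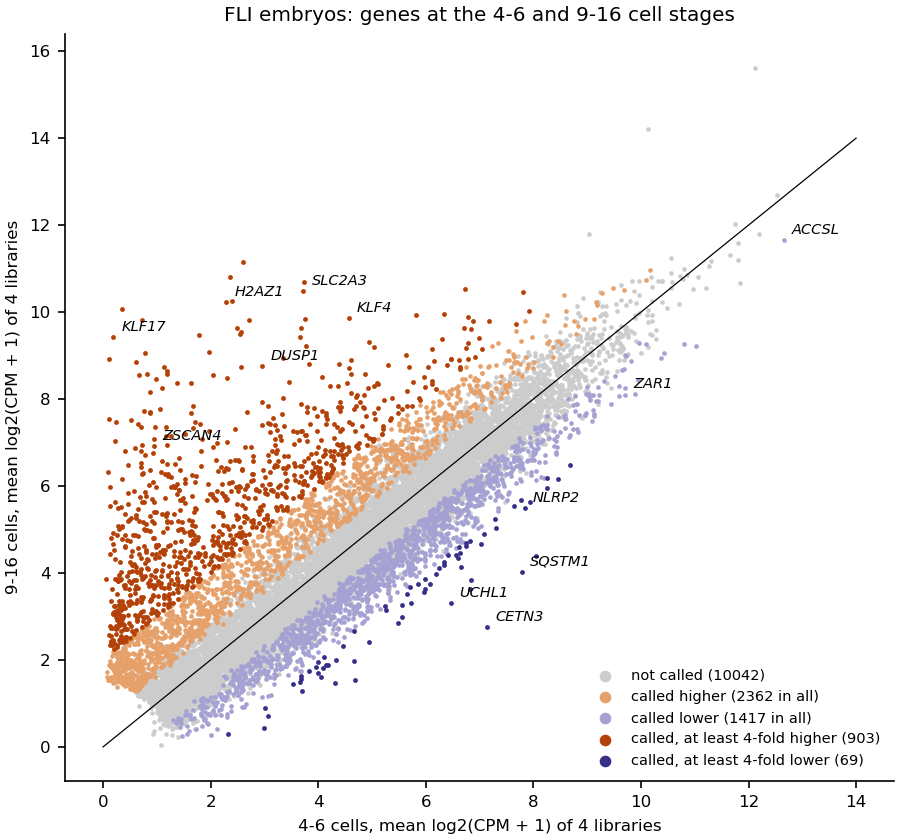
Mean log2(CPM + 1) of the 4 FLI libraries at the 9-16 cell stage (vertical axis) against that at the 4-6 cell stage (horizontal axis), with 1 point for each of 13821 genes and a line of equal level. The 903 genes called at least 4-fold higher lie above the line, 264 of them with a mean under 1 CPM on the horizontal axis, while the 69 called at least 4-fold lower lie in a narrow band below the line.

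Among the role lists, transcription factors known to act in genome activation had the largest median log2 difference. The lists were chosen with earlier results of these data known, so this rank is a description only. Of 45 such factors listed by role, 28 were in both tables and 27 passed the filter of a mean of 1 CPM. Factors barely detected early, such as KLF17, passed it through their late levels. Of these 27, 19 rose and 0 fell, with a median log2 difference of 2.11 against -0.03 over all genes tested, and without replicate 6 21 rose and 1, KLF2, fell (median 2.13). The shares over all genes were 17.1% rises and 10.3% falls (25.3% and 20.1% without replicate 6). KLF17, a Krüppel-like zinc finger factor, lay at 0.158, 0.255, 0.0628 and 0.0799 CPM in 4-6 cell replicates 6 to 9. In 9-16 cell replicates 10 to 13 it lay at 803, 520.4, 875 and 600.1 CPM. It was near the detection limit in every early library and abundant in every late one, a log2 difference of 9.24 ± 0.23 (SE; limma, adjusted p = 4.0e-09), and 9.27 without replicate 6.

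ZSCAN4, a SCAN-domain zinc finger protein of cleavage embryos that acts at telomeres in mouse cells, lay at 1.12, 1.38, 1.32 and 0.160 CPM in the early libraries and at 124, 109, 118 and 129 CPM in the late ones. The groups were far apart and the late libraries were tight, with a log2 difference of 5.98 ± 0.27 (limma, adjusted p = 9.9e-08) and of 6.04 without replicate 6. OTX1, an orthodenticle homeobox factor, rose from 0.999, 1.23, 1.38 and 0.359 CPM to 198, 145, 181 and 133 CPM, a log2 difference of 6.39 ± 0.25 (limma, adjusted p = 5.0e-08). The related OTX2 rose by 1.74, from 2.44 ± 1.10 to 10.1 ± 1.44 CPM. The paired-class homeobox factor PITX1 rose by 1.35 on the log2 scale.

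Of 14 Krüppel-like factor genes tested, a family singled out after its values were seen, 8 rose and 0 fell, and without replicate 6 9 rose and 1, KLF2, fell by 0.81. Over all genes 17.1% rose and 10.3% fell (25.3% and 20.1% without replicate 6). Beside KLF17 the rises included KLF10 up by 6.99, KLF4 by 5.30, KLF3 by 4.55, KLF9 by 3.53, KLF5 by 2.11 and KLF13 by 2.02 on the log2 scale (limma, adjusted p at most 0.0015). KLF4, one of the reprogramming factors, showed the mark of replicate 6: its early values were 4.85 CPM there and 34.4, 49.7 and 29.1 CPM in replicates 7 to 9, and its late values 978, 847, 1152 and 783 CPM. Its log2 difference was 4.62 without that library. Promoter-binding factors of broad use rose too: SP1 from 41.3 ± 15.7 to 447 ± 69.6 CPM, its relative SP5 from 0.391 ± 0.207 to 57.1 ± 8.83 CPM, and NFYA, the sequence-specific subunit of the CCAAT-box factor NF-Y, from 8.51 ± 1.39 to 157 ± 27.2 CPM. The partner subunits of NFYA were not called with all 8 libraries, NFYB at a log2 difference of 0.40 and NFYC at -0.20. MYC, a growth-promoting transcription factor, rose from 0.758 ± 0.660 to 80.2 ± 25.1 CPM (log2 difference 5.55). The endoderm factor GATA6 rose by 4.43, and the nuclear receptors RARG and NR5A2 by 1.30 and 1.18.

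**Figure D3:**
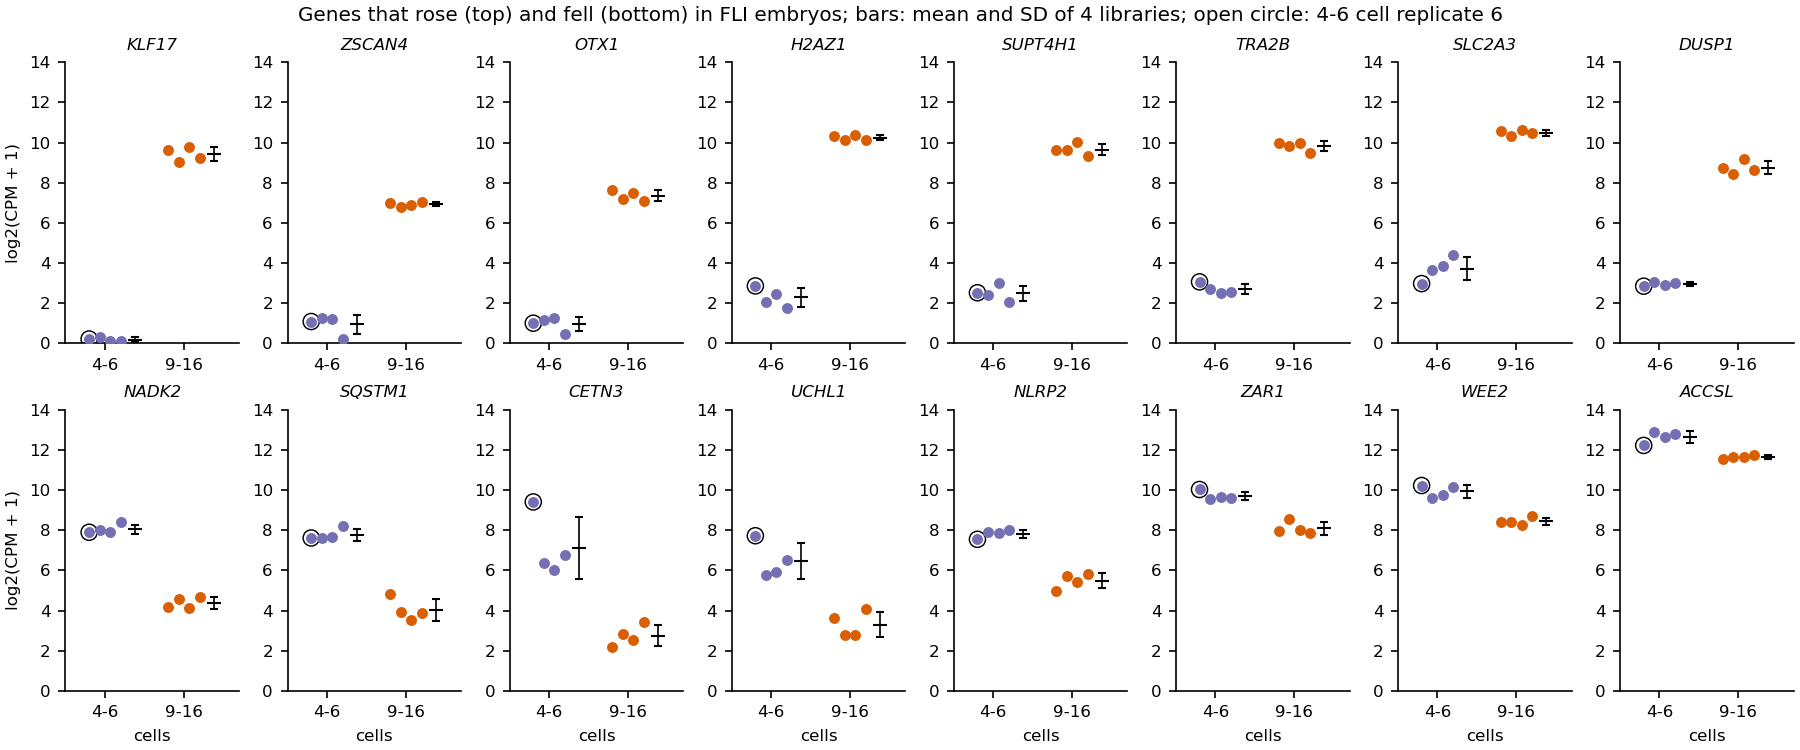
Levels as log2(CPM + 1) of 8 genes that rose (top) and 8 that fell (bottom) in FLI embryos, with 1 point per library, bars for the mean and SD of 4 libraries, and 4-6 cell replicate 6 ringed. The stages do not overlap for any of the 16 genes, and replicate 6 lies above the other early libraries for CETN3 (680.1 CPM) and UCHL1 (211 CPM).

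Some activation factors were listed only in the table of the 9-16 cell stage, so that no difference could be formed. That table lists 1698 genes that the 4-6 cell table does not, 321 of them at a mean of at least 1 CPM in the FLI libraries, whereas 1 of the 411 genes listed only in the 4-6 cell table reached that level. TFAP2C, an AP-2 factor of the trophectoderm and germ line, stood at 588, 397, 585 and 525 CPM in 9-16 cell replicates 10 to 13. BECN2, a relative of the autophagy protein beclin, averaged 539 ± 105 CPM (SD, n = 4). MYCN, a relative of MYC, averaged 62.9 ± 14 CPM, the cancer-testis antigen PRAME 54.7 ± 19.8 CPM and DPPA2, a developmental pluripotency-associated protein that activates early embryonic genes in mouse cells, 47.3 ± 11.2 CPM. These levels use the total of the 9-16 cell table.

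Genes that earlier work in cattle uses as markers of activation gave 34 tested of 43 on the list, of which 18 rose and 0 fell, with a median log2 difference of 1.17 (20 rose and 1 fell of 33 tested without replicate 6). The shares over all genes were 17.1% rises and 10.3% falls (25.3% and 20.1% without replicate 6). H2AZ1 encodes the histone variant H2A.Z. It lay at 6.24, 3.12, 4.52 and 2.40 CPM in the early libraries and at 1261, 1132, 1327 and 1107 CPM in the late ones. The gap was many times the spread, with a log2 difference of 7.95 ± 0.26 (limma, adjusted p = 2.1e-08) and 8.15 without replicate 6. Histone variant and other small genes have near-identical copies elsewhere in the genome, and how reads were shared between copies is not given in the sources used here. SUPT4H1, a subunit of the elongation factor DSIF, rose from 4.72, 4.29, 6.91 and 3.19 CPM to 788, 779, 1032 and 645 CPM, a log2 difference of 7.15. CCNE1, the cyclin of the entry into S phase, rose by 3.87, and KDM5B, a demethylase of histone H3, by 3.76. CTCF, the insulator protein, rose by 1.01 from a higher start, from 166 ± 6.06 to 337 ± 29.7 CPM, and YY1 by 1.89.

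The largest rises among genes with a symbol lay in part outside these lists. PNRC1, a coactivator of nuclear receptors, rose from 7.40, 2.66, 3.90 and 3.99 CPM to 1364, 1177, 1501 and 949.9 CPM, a log2 difference of 7.88 ± 0.28 (limma, adjusted p = 3.9e-08). SGK1, a kinase downstream of phosphoinositide 3-kinase, rose by 7.30, the adhesion protein AMIGO2 by 7.89 and the chemokine GRO1 by 7.23. The zinc finger genes ZIM3 and ZNF296 rose by 7.11 and 6.95, and ANKRD50, SLC25A25, FOLR1 and PCDH8, which encode an endosomal recycling protein, a mitochondrial carrier, a folate receptor and a protocadherin, by 6.99, 6.98, 6.81 and 6.79. By added CPM the leading genes with a symbol were SLC2A3, DDX5, PNRC1, H2AZ1, HNRNPA1 and STK35. Some genes without a symbol gained more. SLC2A3, a high-affinity glucose transporter, lay at 6.85, 11.6, 13.6 and 20 CPM early and at 1534, 1264, 1567 and 1404 CPM late. The late libraries all lay far above the early ones, and the log2 difference was 6.77 ± 0.29 (limma, adjusted p = 9.8e-08), 6.52 without replicate 6.

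Genes of the machinery that makes, splices and translates RNA differed between groups. Of 70 splicing genes tested, 28 rose and 2 fell (median log2 difference 0.56; 39 and 6 without replicate 6), a larger share of rises than the 17.1% of all genes. TRA2B, an SR-like splicing regulator, rose from 7.33, 5.62, 4.65 and 4.95 CPM to 1007, 915, 1012 and 716 CPM, a log2 difference of 7.11 ± 0.22 (limma, adjusted p = 1.9e-08). SRSF3, an SR protein, rose by 5.95, CLK1, a kinase that phosphorylates SR proteins, by 3.75, and RBMX, an hnRNP protein, by 3.72. The RNA helicase DDX5, which works with spliceosomes and transcription complexes, went from 106 ± 17.2 to 1475 ± 138 CPM.

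Subunits of RNA polymerase II and its initiation and elongation factors gave 17 rises and 6 falls of 70 tested, with a median near that of all genes (0.06; 30 and 12 without replicate 6). Beside SUPT4H1, the largest rises included genes of elongation control: HEXIM1, an inhibitor of the elongation kinase P-TEFb, rose by 4.20 on the log2 scale, ELL2, a super elongation complex factor, by 4.09, and TAF4B, a TFIID subunit of germ cells, by 3.59. Among 38 Mediator subunits and coactivators 8 rose and 3 fell (10 and 9 of 37 without replicate 6), shares near the 17.1% and 10.3% of all genes, or 25.3% and 20.1% without replicate 6. MED26 rose by 3.15, CCNC by 3.04 and MED12 by 2.98, and the acetyltransferase EP300 went from 247 ± 127 to 860 ± 151 CPM. LEO1, a subunit of the elongation complex PAF1C, moved the other way and fell by 1.79.

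Cytosolic ribosomal protein genes rose as a group. Of 82 tested, 44 rose and 0 fell, with a median log2 difference of 1.27, and without replicate 6 78 rose and 0 fell, with a median of 1.62. Over all genes 17.1% rose and 10.3% fell (25.3% and 20.1% without replicate 6). The summed level of the ribosomal protein genes ran from 2794 to 3520 CPM in 4-6 cell replicates 7 to 9. It was 9421 CPM in replicate 6 and ran from 6579 to 10994 CPM at the 9-16 cell stage. The library with the high early sum is the one with the high short-gene index, and the part of one in the other was not tested. RPS9 lay at 19.0, 11.3, 13.9 and 15.3 CPM early and at 233, 216, 264 and 111 CPM late, a log2 difference of 3.65 ± 0.30 (limma, adjusted p = 7.9e-06). RPL26 rose by 3.83 with replicate 6 and by 4.34 without it.

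Ribosome assembly genes gave 19 rises and 6 falls of 81 (35 and 9 without replicate 6; median log2 difference 0.31), against 17.1% rises and 10.3% falls over all genes (25.3% and 20.1% without replicate 6). TAF1D, a subunit of the RNA polymerase I initiation complex, rose from 0.169 ± 0.134 to 49.7 ± 11.7 CPM, and NOL11, POLR1C and NOP16 rose by 3.89, 3.77 and 3.54. Of 50 translation factors 18 rose and 2 fell (29 and 4 without replicate 6). EIF5A2, an isoform of the elongation-promoting factor eIF5A, rose by 4.68, the termination factor ETF1 by 4.04, the eIF3 subunit EIF3A by 3.05 and the ribosome translocase EEF2 by 2.62. Among 29 importins and exportins tested, 11 rose and 2 fell (14 and 5 without replicate 6), led by KPNA4 (4.10) and IPO7 (3.52).

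**Figure D4:**
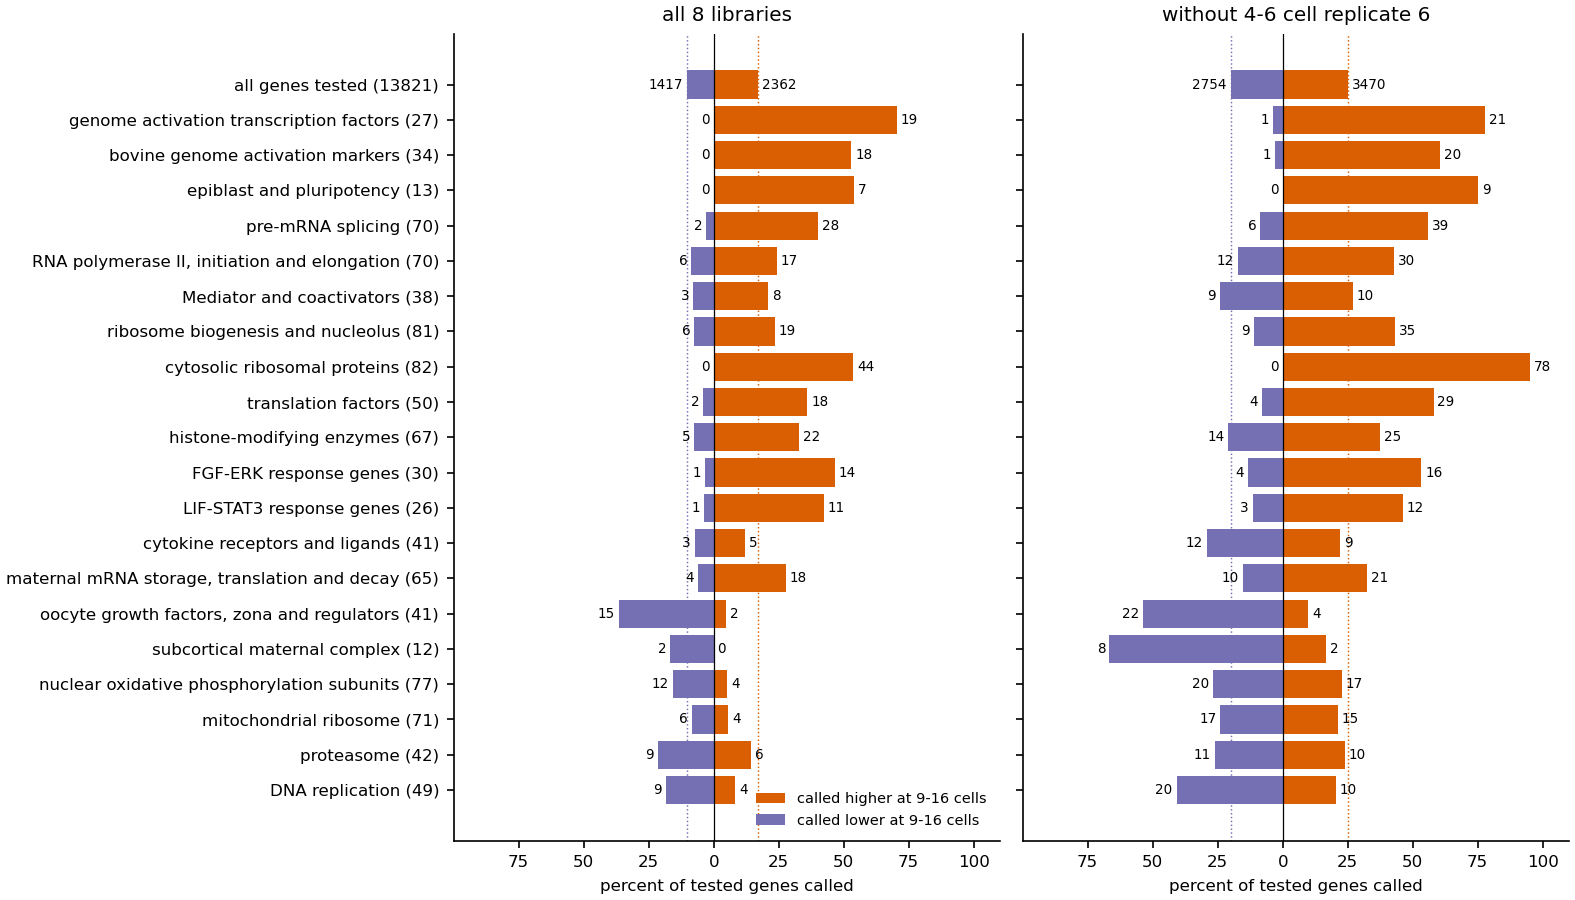
Percent of the tested genes of each list called higher (right) or lower (left) at the 9-16 cell stage, with the counts beside the bars and the number tested with all 8 libraries in parentheses, for all 8 libraries and without 4-6 cell replicate 6. Dotted lines mark the share over all genes, 17.1% and 10.3% with all 8 libraries and 25.3% and 20.1% without replicate 6; ribosomal protein genes go from 44 to 78 called higher.

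Of 41 tested genes of oocyte growth factors, zona proteins and oocyte regulators, 15 fell and 2 rose (median log2 difference -0.63), against a background of 10.3% falls over all genes. Without replicate 6, 22 fell and 4 rose. The 2 that rose, ZFP57 and OTX2, are an imprint-protecting zinc finger protein and a homeobox factor. WEE2, the oocyte kinase that holds CDK1 in check, lay at 1199.6, 776, 858 and 1151 CPM early and at 338, 345, 303 and 411 CPM late. The stages did not overlap, with a log2 difference of -1.49 ± 0.23 (limma, adjusted p = 7.5e-04) and -1.40 without replicate 6.

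UCHL1, a deubiquitinase abundant in oocytes, lay at 211, 53, 58.7 and 90.4 CPM early and at 11.3, 5.79, 5.85 and 15.7 CPM late. Replicate 6 held the highest early value, and the log2 difference was -3.17 ± 0.46 with it and -2.75 without it (limma, adjusted p = 5.0e-04 and 5.1e-06). The oocyte transcription factor FIGLA fell by 2.13, the piRNA-pathway nuclease PLD6 by 2.0 and the germ cell helicase DDX4 by 1.59. GDF9, an oocyte growth factor, went from 615 ± 201 to 287 ± 111 CPM, and the zona pellucida protein ZP2 from 797 ± 48.8 to 409 ± 80.2 CPM. BMP15, a growth factor related to GDF9, was not called. ASTL, which cleaves ZP2 after fertilization, fell by 1.28, and IZUMO1R, the egg's sperm receptor, by 1.39.

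Genes of the subcortical maternal complex, a protein assembly under the egg cortex that cleavage in mice needs, gave 2 falls of 12 tested with all 8 libraries and 8 falls and 2 rises without replicate 6, with medians of -0.57 and -0.78. Over all genes the shares were 17.1% rises and 10.3% falls, or 25.3% and 20.1% without replicate 6. With all 8 libraries the 2 falls are too few to set apart from these shares. NLRP2 lay at 186, 239.5, 235 and 256 CPM early and at 30.9, 51.2, 42.1 and 55.3 CPM late, a log2 difference of -2.35 ± 0.24 (limma, adjusted p = 3.8e-05). NLRP9 fell by 0.98, with overlap between the stages that came from 436 CPM in replicate 6. OOEP was not called with all 8 libraries (log2 difference -1.56, adjusted p = 0.058 by limma) and ranged from 129.9 to 892 CPM in the early group, with replicate 6 the highest. It fell by 0.91 without that library.

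Genes that store, translate and clear maternal mRNA moved in both directions, with 18 rises and 4 falls of 65 tested (21 and 10 without replicate 6). Over all genes the shares were 17.1% rises and 10.3% falls (25.3% and 20.1% without replicate 6). The list thus had a larger share of rises and a smaller share of falls than all genes. Its median log2 difference was 0.28 with all 8 libraries, but 0.04 without replicate 6 and -0.0036 in control embryos. YTHDF2, a reader of methylated adenosine that promotes mRNA decay, lay at 36.3, 23.7, 27.8 and 25.4 CPM early and at 301, 260.4, 357 and 190.5 CPM late, a log2 difference of 3.23 ± 0.25 (limma, adjusted p = 4.8e-06). The uridylyltransferase TUT7, which marks mRNA tails for decay, rose by 3.04 and the deadenylation adaptor TOB2 by 2.62. The falls were ZAR1, PAN2, CNOT10 and YTHDC2. ZAR1, which stores maternal mRNA in oocytes, lay at 1045, 746, 793 and 779 CPM early and at 247, 380.3, 261 and 229 CPM late, a log2 difference of -1.60 ± 0.24 (limma, adjusted p = 5.7e-04) and -1.49 without replicate 6. PAN2 and CNOT10, subunits of the poly(A) nucleases, fell by 1.57 and 1.13. BTG4, the adaptor that recruits deadenylases to maternal mRNA in mouse oocytes, was not called, at 11799 CPM in replicate 6, 2292 to 2519 CPM in the other early libraries and 2242 to 5232 CPM late.

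The deepest falls were not in these lists. CETN3, a centrin of the centrosome, lay at 680.1, 80.5, 64.0 and 107 CPM early and at 3.61, 6.15, 4.76 and 9.95 CPM late. The stages were far apart in every library, but the size depended on replicate 6, with log2 differences of -4.38 ± 0.65 with it and -3.63 ± 0.27 without it (limma, adjusted p = 5.8e-04 and 9.4e-08). SQSTM1, the autophagy receptor p62, went from 195, 194, 203 and 299.9 CPM to 26.9, 14.1, 10.6 and 13.5 CPM. Its log2 difference was -3.75 ± 0.30 and -3.81 without replicate 6, so that this fall did not rest on that library. NADK2, the mitochondrial NAD kinase, likewise fell from 238, 254, 239 and 336 CPM to 16.8, 23.2, 16.2 and 25 CPM, a log2 difference of -3.66 with replicate 6 and -3.71 without it.

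Further falls were CLCC1 (a chloride channel of the endoplasmic reticulum) by 3.19, PLS1 (an actin-bundling plastin) by 3.13, TMEM242 by 3.0 and RPGRIP1L (a ciliary protein) by 2.64. Without replicate 6 their log2 differences were smaller, at -2.71, -2.87, -2.51 and -2.21 in this order. LIG4, the ligase of DNA end joining, fell by 2.68, and NDUFA6, a subunit of respiratory complex I, fell by 2.58. NDUFA6 fell by 1.85 without replicate 6, where it stood at 216 CPM against 25.9 to 28.4 CPM in replicates 7 to 9. By lost CPM the leading falls were ACCSL, SLBP2, CENPF, RBBP7 and LEO1, an order that rested in part on replicate 6, since without it WEE2, UHRF2 and ZAR1 lost more than SLBP2 and LEO1. ACCSL lay at 4791, 7695, 6498 and 7175 CPM early and at 2971, 3218, 3227 and 3500.5 CPM late, a log2 difference of -1.0 ± 0.23 (limma, adjusted p = 0.0076). CENPF, a kinetochore protein, fell from 1809 ± 376 to 635 ± 177 CPM. SLBP2, the oocyte form of the histone stem-loop binding protein, fell by 1.44 with replicate 6 (3918 CPM there) and by 0.92 without it.

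Nuclear genes of oxidative phosphorylation, the mitochondrial ribosome and the proteasome had medians that turned on replicate 6. For 77 oxidative phosphorylation subunits the median log2 difference was -0.59 with 4 rises and 12 falls, and -0.14 with 17 rises and 20 falls of 75 tested without that library. For 71 mitochondrial ribosome genes it was -0.51 and -0.14, and for 42 proteasome genes -0.38 and 0.02. Their summed levels were the highest in replicate 6: the oxidative phosphorylation genes summed to 11643 CPM there, to 2520 to 2928 CPM in replicates 7 to 9 and to 2868 to 3212 CPM late. The mitochondrially encoded genes gave 4 rises of 13 with all 8 libraries and 12 rises without replicate 6, with 0 falls either way. The shares over all genes were 17.1% rises and 10.3% falls, or 25.3% and 20.1% without replicate 6. Without replicate 6 the oxidative phosphorylation counts lay near those shares. COX1, a subunit of cytochrome c oxidase, stood at 1200.1 CPM in replicate 6, at 689 to 765 CPM in replicates 7 to 9 and at 1175 to 1826 CPM late.

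The receptors for the added cytokines were measured at both stages. LIFR and IL6ST, the subunits of the LIF receptor, lay at 13.7 ± 3.45 and 14.5 ± 3.96 CPM and at 4.40 ± 1.23 and 4.58 ± 2.47 CPM at the early and late stage and were not called. IGF1R, the receptor of IGF1, was not called either, at 30.9 CPM in replicate 6, 129 to 145 CPM in replicates 7 to 9 and 132 to 157 CPM late. Of the FGF receptors FGFR1 (log2 difference -0.25) and FGFR2 (-0.38) were not called. FGFR3 rose, from 0.0263, 0.204, 0.251 and 0.0399 CPM to 19.3, 11.8, 8.73 and 8.57 CPM, a log2 difference of 3.47 ± 0.27 (limma, adjusted p = 4.6e-06) and 3.45 without replicate 6.

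In all, 5 of 41 receptors, ligands and signal carriers rose and 3 fell (9 and 12 without replicate 6), against 17.1% and 10.3% of all genes (25.3% and 20.1% without replicate 6). The rises beside FGFR3 included the insulin receptor substrate IRS2, the interleukin 6 receptor IL6R and the Janus kinase TYK2, by 1.02 to 1.68 on the log2 scale. IGFBP3, which binds IGF1 outside the cell, fell from 258, 207, 199 and 198 CPM to 95.4, 82.1, 90.3 and 72.2 CPM, a log2 difference of -1.33 ± 0.21 (limma, adjusted p = 7.6e-04). The phosphoinositide 3-kinase subunit PIK3R1 fell by 0.76. STAT3, the transcription factor that LIF activates, was not called with replicate 6 (413 CPM) and fell by 0.65 without it, from 1476 to 1643 CPM in replicates 7 to 9 to 894 to 1247 CPM late.

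Genes that respond to FGF signalling through the kinase ERK rose in larger number, 14 of 30 against 1 fall (16 and 4 without replicate 6). Over all genes 17.1% rose and 10.3% fell (25.3% and 20.1% without replicate 6). The median log2 difference of these response genes was 0.71, and 0.47 without replicate 6. In control embryos it was 0.33 over all 8 control libraries, with control replicates 6 and 11, which stood apart, among them. A difference of these medians between treatments was not tested. DUSP1, a phosphatase that turns MAP kinases off, lay at 6.18, 7.35, 6.60 and 7.03 CPM early and at 423, 349.9, 588 and 395 CPM late. The early libraries were nearly equal and every late library was far above them, a log2 difference of 5.79 ± 0.22 (limma, adjusted p = 4.6e-08). DUSP4, a phosphatase of the same family, rose by 5.13, the immediate-early genes IER3, IER2 and EGR1 by 3.73, 3.38 and 1.32, and DUSP6, a phosphatase of ERK itself, by 0.72. HBEGF, a ligand of the EGF receptor, fell by 0.69.

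Of 26 genes that respond to LIF through STAT3, 11 rose and 1 fell (12 and 3 without replicate 6). The shares over all genes were 17.1% and 10.3% (25.3% and 20.1% without replicate 6). The median log2 difference of the STAT3 response genes was 0.76, and 0.32 without replicate 6. In control embryos it was 0.13, again over all 8 control libraries, and a difference of these medians between treatments was not tested. MYC, KLF4, KLF5 and MCL1, counted here as well, belong also to the activation or ERK lists. SOCS2, a feedback inhibitor of cytokine signalling, lay at 6.87, 3.52, 2.64 and 4.35 CPM early and at 100, 95.9, 93.4 and 85.7 CPM late, a log2 difference of 4.20 ± 0.26 (limma, adjusted p = 7.9e-07). SOCS1 and CISH rose by 1.12 and 1.81, and the helix-loop-helix inhibitors ID1 and ID2 by 4.67 and 4.49. SOCS3, the feedback gene most tied to STAT3, was not called with all 8 libraries (adjusted p = 0.11 by limma; 6.44 CPM in replicate 6, 27.7 to 28.4 CPM in replicates 7 to 9, 33.3 to 45.3 CPM late) and rose by 0.50 without replicate 6. PIM2, a survival kinase, fell by 0.83. For the third cytokine, 4 of 21 targets of the FOXO factors, which IGF1 signalling restrains, rose and 1 fell, with a median of 0.08 (6 and 5 without replicate 6), a share of rises near the 17.1% of all genes.

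Whether the stage change in FLI embryos differed from that in control embryos was tested as an interaction over 16 libraries. Among 13880 genes none was called (0.0%) by limma, and 80 had an unadjusted p under 0.05. The edgeR, DESeq2 and limma-voom counts of called genes were 0 as well, with 73, 108 and 77 genes at an unadjusted p under 0.05. The median standard error of the interaction was 0.44 on the log2 scale, a 95% half-width of 0.868, and 0.606 with the replicate block, which gave 0 called genes and 300 at an unadjusted p under 0.05. These half-widths are for a single typical gene without adjustment, and a call after adjustment needed a larger difference. The gene CBLN1, with an interaction of 1.23 ± 0.29 (SE), was not called. Leaving out the 3 libraries that stood apart gave 0 called genes and 216 at an unadjusted p under 0.05. All these counts lie below a share of 0.05 of the genes, which a calibrated test would give on average without any difference. The interaction test was therefore conservative here, and the absence of calls does not show that both treatments changed alike.

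In the control libraries 842 of the 903 genes that rose at least 4-fold in FLI embryos were called higher too. Of the 69 that fell at least 4-fold, 50 were called lower. Over all 13901 genes tested in the control libraries, 1533 were called higher and 713 lower. Of all genes called in FLI embryos, 1480 of 2362 rises and 602 of 1417 falls were called in the same direction in control embryos. The control libraries include 4-6 cell replicate 6 and 9-16 cell replicate 11, which stood apart. Their part in the number of control calls was not tested, so a gene uncalled in control embryos is not thereby particular to FLI embryos. Over 13660 genes tested in both, the log2 stage differences of FLI and control embryos, from separate libraries, had a Pearson r of 0.96 across genes, which are not independent replicates and share the deposited tables. KLF17 changed by 9.24 in FLI and by 8.42 in control embryos, H2AZ1 by 7.95 and 7.89, TRA2B by 7.11 and 7.62, ZSCAN4 by 5.98 and 5.78, and NADK2 by -3.66 and -3.25.

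The 5 named genes with the smallest interaction p were CBLN1, IRF4, ADCY5, PPP1R18 and DUSP1, each with an adjusted p of 1.0 by limma. CBLN1, a secreted synaptic organizer, lay at 0.999 to 2.20 CPM early and at 74.9 to 104 CPM late in FLI embryos, a log2 difference of 5.17 against 3.91 in control embryos. IRF4, an interferon regulatory factor, differed by 3.33 and 2.06, PPP1R18 by 2.26 and 1.16, and DUSP1 by 5.79 and 4.75. ADCY5, an adenylate cyclase, differed by 0.16 in FLI embryos, where it was not called, and by -1.02 in control embryos. The interaction of DUSP1 was 1.01 ± 0.34 (SE). None of these differences between treatments passed the adjustment, and the values are descriptions.

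**Figure D5:**
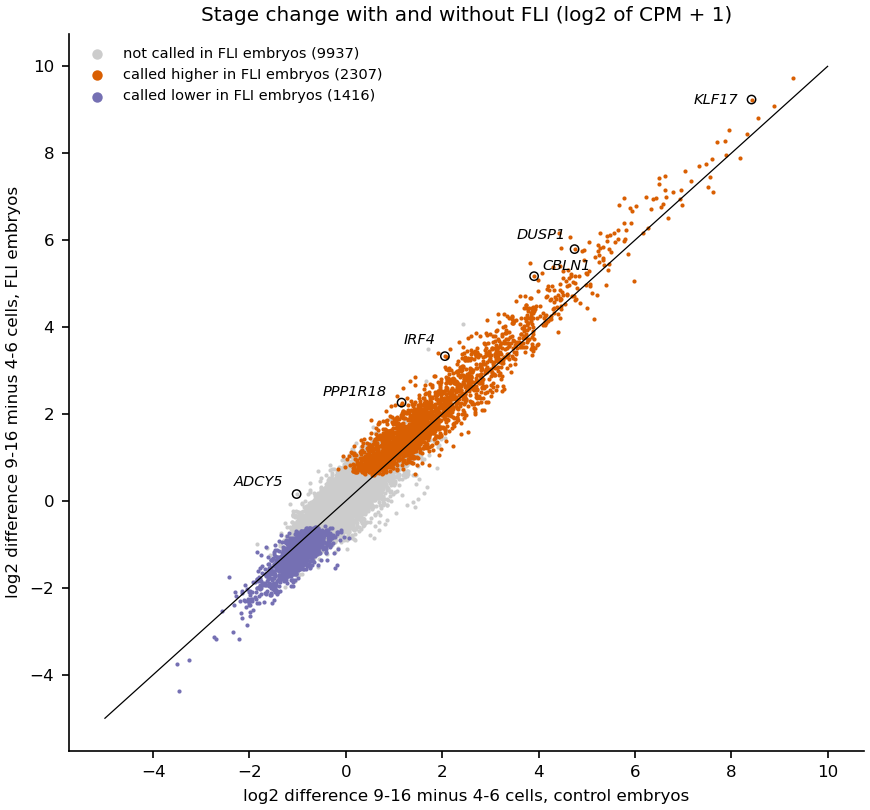
Log2 difference between the 9-16 and 4-6 cell stages in FLI embryos (vertical axis) against that in control embryos (horizontal axis), with 1 point for each of 13660 genes and a line of equal change. The points follow the line (Pearson r 0.96 across genes), and the ringed genes are KLF17 and the 5 named genes with the smallest interaction p, none of which was called.

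Genes of the first lineages were unevenly represented. Of 13 tested epiblast and pluripotency genes 7 rose and 0 fell (9 and 0 of 12 without replicate 6), among them KLF17, KLF4, PRDM14 and TBX3. PRDM14, a regulator of pluripotency and germ cells, lay at 0.486, 2.09, 1.82 and 1.08 CPM early and at 113, 119, 150.4 and 109 CPM late, a log2 difference of 5.75 ± 0.27 (limma, adjusted p = 1.4e-07). The core pluripotency gene POU5F1 averaged 71.6 CPM early and 69.5 CPM late. Of 21 trophectoderm genes 4 rose and 1 fell (7 and 2 without replicate 6), led by EOMES, a T-box factor, from 0.690 ± 0.445 to 124 ± 22.1 CPM. Of 20 hypoblast genes 3 rose and 1 fell (3 and 2 without replicate 6), led by the PDGF receptor PDGFRA (log2 difference 4.96) and GATA6. The shares for trophectoderm and hypoblast genes lay near the 17.1% of all genes.

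The other cell types that a pool of embryos could hold were followed by marker lists. Of 15 tested cumulus cell markers 3 rose and 0 fell (3 and 1 of 14 without replicate 6), the nuclear receptor NR2F2 by 2.87, TNFAIP6 by 1.59 and AMH by 1.55 on the log2 scale, and the list summed to 467 to 513 CPM early and 461 to 562 CPM late. Of 6 tested sperm markers TSSK1B rose and LDHC fell (1 and 1 without replicate 6 as well), with sums of 89.8 to 240 CPM and 75.8 to 96.9 CPM. Of 9 tested blood, immune and endothelial markers CD14 and KDR rose and 0 fell (3 and 2 without replicate 6), with sums of 238 to 409 CPM and 208 to 238 CPM. The endothelial marker VWF was not called with all 8 libraries, and of the alternatives run it was called lower only in those without replicate 6. The shares to read these marker counts against are 17.1% rises and 10.3% falls over all genes (25.3% and 20.1% without replicate 6). The counts are small, and no change of such cells is read from them. The part of such cells in the gene groups above was not tested.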

How the data were processed

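The values are from RNA-seq of pooled embryos. Per the submitters' processing notes, FastQC, HISAT2, featureCounts and edgeR were used with the ARS-UCD1.2 build; the sources used here do not give their versions or settings. The deposited values of the authors are a scaled signal per gene, in 1 table per stage. Dividing each column by its smallest positive value gave whole reads for 100% of values (tolerance 0.001), and these recovered reads are not the authors' own counts. Tables were joined on gene ID: 16690 genes at the 4-6 cell stage, 17977 at the 9-16 cell stage, 16279 in both, which held 99.6 to 100.0% of the reads.

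CPM used trimmed-mean (TMM) factors computed jointly over the 8 libraries, or over 16 for the interaction. Genes with a mean of at least 1 CPM were tested on log2(CPM + 1) with limma 3.58.1 (trend, robust; R 4.3.3), with Benjamini-Hochberg adjustment over all genes tested and a threshold of 0.05. Alternatives used edgeR 4.0.16 (quasi-likelihood), limma-voom and DESeq2 1.42.0 on the recovered reads, other scaling, pseudocount and filters, thinning to the shallowest library and leaving out each library. The edgeR test called 2231 genes higher and 1565 lower. The test was also tried on simulated data that held no library standing apart, and the outcome is not reported here. Library measures were compared with two-sided exact permutation tests.

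Genes named are the 15 with the largest log2 difference and the 10 with the largest CPM difference in each direction among called, non-overlapping genes with a symbol, up to 4 called members of each of 40 role lists (more in the lists of activation, maternal and cytokine genes) and the 5 smallest interaction p. Uncalled genes are also named: the cell type markers DPPA3, BMP15, POU5F1, OOEP, HAS2, PTX3, CYP19A1 and VWF, ADCY5 by the interaction rule, and FGFR1, FGFR2, LIFR, IL6ST, IGF1R, STAT3, SOCS3, BTG4, NFYB, NFYC and KLF2, which, like the genes listed only in the 9-16 cell table, were chosen after their values were seen. Some genes that meet the rule are not reported here. The groups, lists and tests were chosen with earlier results of these data known. No sequences are shown, since none were used here.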

Additional observations from a re-analysis of the deposited data

Results flagged for a closer look

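A single library far from the other 3 of its group was looked for with Dixon's test, in the 2 FLI groups, over 6 library measures and the 171 genes named here that both tables list. Chance alone marks about 1 in 20 such groups. Of 354 groups 60 were marked, 42 of them by FLI 4-6 cell replicate 6. This library held 89.2 M reads against 14.1 to 22.6 M, 22.6% of reads in the 100 most abundant genes against 16.8 to 16.9%, and a short-gene index of -0.44 against -2.55 to -2.40. Its values are part of the early group in every result above that is given with all 8 libraries.

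In CPM, with the range of the other 3 libraries after each value, replicate 6 lay above them for BTG4 (11799 against 2292 to 2519), CCNE2 (8.44 against 1.07 to 1.53), CENPF (2370.3 against 1578 to 1652), CETN3 (680.1 against 64 to 107), CLCC1 (306 against 69.5 to 89.7) and COX1 (1200.1 against 689 to 765). The same direction held for DPPA3 (1734 against 998 to 1089.6), FIGLA (150.4 against 24.4 to 40.1), GDF9 (915 against 493 to 530.0), HNRNPA1 (446 against 163 to 192), IGFBP3 (258 against 198 to 207) and KDM5B (13.1 against 6.84 to 6.91). It was also the highest for LDHC (139 against 37.8 to 45), LEO1 (2022 against 731 to 752), NDUFA6 (216 against 25.9 to 28.4), NFYB (78.7 against 36.2 to 40.6), OOEP (892 against 129.9 to 175) and ORC2 (126 against 69.6 to 79.1). Among further genes it lay above the others for PTX3 (3.09 against 1.28 to 1.44), RFC3 (232 against 38.1 to 58.5), RPGRIP1L (111 against 29.8 to 36.3), SLBP2 (3918 against 854 to 1058), TAF1D (0.368 against 0.0799 to 0.126) and TMEM242 (321 against 65.4 to 104). The list of high values goes on with VWF (258 against 48.6 to 53.9) and ZAR1 (1045 against 746 to 793).

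Replicate 6 lay below the other early libraries, in CPM, for BMP15 (1179.6 against 1606 to 1634), ELL2 (8.78 against 21.8 to 22.3), EP300 (57.3 against 298 to 323), HK2 (2.51 against 12.1 to 13.7), IGF1R (30.9 against 129 to 145) and KLF2 (9.31 against 53.7 to 59.2). It was also the lowest for MCM5 (115 against 189.8 to 195), MED12 (3.31 against 14.3 to 15.9), NFYA (6.43 against 9.11 to 9.35), NLRP9 (436 against 843 to 920.0), SOCS3 (6.44 against 27.7 to 28.4) and SP1 (17.7 against 49.2 in all 3). The list of low values ends with STAT3 (413 against 1476 to 1643).

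In other 4-6 cell libraries the marked values, in CPM, were AMH in replicate 8 (0.754 against 0.0263 to 0.12), DUSP6 in replicate 8 (31.9 against 25.6 to 26.2), FOLR1 in replicate 7 (0.715 against 0 to 0.0628), GRO1 in replicate 9 (listed at 0 against 0.251 to 0.263), NADK2 in replicate 9 (336 against 238 to 254), SQSTM1 in replicate 9 (299.9 against 194 to 203) and TNFAIP6 in replicate 9 (0.799 against 0 to 0.126). In 9-16 cell libraries they were BMP15 in replicate 13 (1869 against 1385 to 1457), DPPA3 in replicate 13 (2397 against 1221 to 1403), FGFR2 in replicate 10 (6.65 against 9.45 to 9.98), KLF3 in replicate 11 (44.8 against 72.5 to 77.6), NFYA in replicate 13 (117 against 165 to 174) and PITX1 in replicate 13 (20.5 against 48.8 to 49.8). The remaining ones of that stage were RFC3 in replicate 12 (16.4 against 27.4 to 27.9), RPL26 in replicate 13 (52.2 against 70 to 70.6), STAG2 in replicate 10 (57.5 against 35.1 to 38), STAT3 in replicate 13 (1247 against 894 to 913) and TAF1D in replicate 13 (67.2 against 43 to 44.6). No named gene was marked for a difference between FLI and control embryos, since none passed the interaction test and none rose in one treatment and fell in the other without overlap.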

How the results depend on the processing

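Every named gene kept its direction in every alternative in which its change was called. Of 151 named genes called with all 8 libraries, 13 lost the call when 1 library was left out (adjusted p at most 0.142 by limma): COX1, DUSP6, GDF9, HBEGF, IRS2, KDR, NLRP9, PIK3R1, PIM2, PITX1, PKM, RFC3 and SLBP2, all with an adjusted p of at least 0.021 with all 8. In the other settings 6 of these lost it, DUSP6 among them without scaling factors. The call was gained without replicate 6 by 7 genes, KLF2, NFYB, OOEP, SOCS3, STAT3, DPPA3 and VWF, and OOEP was also called by edgeR, under each other scaling and without replicate 7. PTX3 was called in CPM without scaling factors and without 9-16 cell replicate 13.

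Leaving out 1 library gave 1899 to 3470 genes higher, 733 to 2754 lower, 861 to 973 at least 4-fold higher and 40 to 101 at least 4-fold lower. Falls numbered 2156 with DESeq2, 2232 in CPM without scaling factors, and 2525 (edgeR) and 2859 (DESeq2) without replicate 6, tool and library combinations chosen after seeing the data, as was leaving out the 3 libraries that stood apart. Falls of at least 4-fold numbered 207 with edgeR, 136 with limma-voom, 165 with DESeq2 and 112 with a pseudocount of 0.25 CPM. The stage difference over the libraries left out 1 at a time ran from 382.0 to 434 genes detected, from 0.121 to 0.276 percentage points of mitochondrial reads, from 2.06 to 4.27 percentage points in the 100 most abundant genes, from -18.7 to 6.34 M reads and from -0.15 to 0.56 in the short-gene index. The read and short-gene differences changed sign with the library left out. Mitochondrial reads, the top 100 genes and the short-gene index had exact two-sided permutation p of 0.171, 0.114 and 1.0 with all 8 libraries and 0.0286, the smallest possible, without replicate 6.

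No paired analysis was possible for the stage change because the stages share no replicate number. For the interaction, a fit with the replicate block called 0 genes, with 300 at an unadjusted p under 0.05. Same-numbered FLI and control libraries deviated together at the 4-6 cell stage (r of 0.92, 0.81, 0.47 and 0.68), where 3 of the 4 correlated best with their own number, and less at the 9-16 cell stage (0.29, 0.077, 0.14 and 0.056), where 1 of the 4 correlated best with its own number. Leaving out each of the 16 libraries gave 0 called genes. With 4 pools a stage, 1 library with a different makeup and stage tied to the deposited table, small changes of single genes are the least certain values here.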

Other observations

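The shares to read these counts against are 17.1% rises and 10.3% falls over all genes, or 25.3% and 20.1% without replicate 6. Of 67 tested histone-modifying enzymes 22 rose and 5 fell (25 and 14 without replicate 6), led by PRDM14, SETD2, the methyltransferase of transcribed chromatin (log2 difference 4.38), KDM5B and the deacetylase HDAC5 (2.98). Of 40 histone genes 10 rose and 3 fell (18 and 7 of 39 without replicate 6), with H2AZ1 the largest rise. Of 17 genes of DNA methylation 3 rose and 2 fell (5 and 5 of 16 without replicate 6): the demethylase TET1 went from 0.449 ± 0.145 to 22.0 ± 4.58 CPM, and ZFP57 and the methyl-binding protein MBD2 rose by 4.95 and 2.80. The maintenance methyltransferase DNMT1 lay at 770.1, 546, 467 and 548 CPM early and at 219.7, 250.3, 228 and 293 CPM late, and UHRF2, a relative of its targeting factor, fell by 1.44. Of 41 chromatin remodelling genes 8 rose and 3 fell (13 and 7 without replicate 6), near those shares, led by the cohesin subunit STAG2 (3.25) and the remodeller CHD1 (2.76).

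Of 45 tested cyclins and cell cycle kinases 13 rose and 3 fell (17 and 8 without replicate 6). CCNE1 and CCNE2 rose by 3.87 and 2.99, and WEE1, the somatic relative of WEE2, rose by 2.5 while WEE2 fell. Of 49 DNA replication genes 4 rose and 9 fell (10 and 20 without replicate 6). The origin recognition subunit ORC2 fell by 1.51, RFC3 by 1.49 and the helicase genes MCM8 and MCM5 by 1.40 and 1.28. Among early libraries ORC2 and RFC3 were highest in replicate 6, at 126 and 232 CPM, and MCM5 was lowest there. RFC3 lost its call in 6 of the fits with 1 library left out. The polymerase delta subunit POLD2 rose by 1.75. Among 25 genes of glucose use 4 rose and 1 fell (6 and 2 without replicate 6): SLC2A3, HK2 (2.73), ALDOC (2.51) and SLC2A1 (2.22) rose, and PKM fell by 0.86. Cholesterol synthesis genes gave 3 rises and 2 falls of 22 (6 and 4 without replicate 6), amino acid transporters 3 and 4 of 24 (4 and 5 of 23) and heat shock genes and chaperonins 5 and 5 of 33 (8 and 8). Unfolded protein response genes gave 6 and 5 of 23 (8 and 6), antioxidant genes 4 and 3 of 29 (6 and 6), p53 targets and the BCL2 family 2 and 2 of 23 (3 and 5) and interferon-stimulated genes 1 and 2 of 15 (3 and 2). These counts are small, and nothing particular to these lists is read from them. Of the p53 list MCL1 rose by 2.15 and MDM2, the ubiquitin ligase of p53, fell by 1.78.

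Part of the rise was in genes without a symbol in the deposited tables, 109 of the 903 that rose at least 4-fold (12.1%, against 9.87% of all genes tested) and 4 of the 69 that fell. The gene with the largest log2 difference was one of them: ENSBTAG00000053706, on chromosome 18 at 48705700 to 48710493 (ARS-UCD1.2), with a log2 difference of 9.73. Among genes without a symbol the next was ENSBTAG00000038680 on chromosome 7 at 15962825 to 15963943, with a log2 difference of 9.10.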
